A study of Sus scrofa with 13 samples.

Results

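The large heat shock proteins and their J-domain cochaperones were followed in 13 bulk RNA libraries of pig liver. Members were all rows of the count table with a gene name beginning with HSPA, HSPD, HSPE, HSPH, HSP90 or DNAJ, without regard to their values, and 59 of the 35670 rows qualified. The small HSPB proteins were not included. Sorted by the place where the protein works, 28 belong to the cytosol and nucleus, 14 to the endoplasmic reticulum (ER), 10 to the mitochondrion and 7 to vesicles, endosomes or no assigned compartment. By family, 27 were DNAJC, 11 DNAJB and 4 DNAJA genes, 12 were HSP70 or HSP110 genes, 3 were HSP90 genes and 2 encoded the mitochondrial chaperonin pair.

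The livers came from female Yorkshire pigs, whose age is not given in the sources used here. Baseline was liver without ischemia, reperfusion or cells, with 2 libraries (1a and 2). Ischemic controls were 3 livers in which all blood flow was clamped off for 45 min and restored for 6 h, with no cells given. The arterial and portal infusion groups, 4 livers each, had the same 45 min of ischemia and 6 h of reperfusion and also received human bone marrow-derived mesenchymal stromal cells (BM-MSCs) at 3 M (M for mega) per kg, given into the artery or the portal vein of the liver. No group received cells without ischemia, and which pigs gave the baseline tissue was not stated. Baseline biopsies were taken before clamping, and no group had the same time of surgery without clamping. In comparisons with baseline, ischemia and reperfusion thus cannot be told apart from time under anesthesia and surgery. The libraries were labelled as liver, and the hepatocyte markers were abundant in all 13. The infused cells are human and the reads were mapped to the pig genome only, so a read of human origin could count toward a pig gene where the sequences are alike, which was not tested.

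Heat shock proteins hold unfolded proteins until they can fold. An HSP70 binds a short stretch of its client in a cycle driven by ATP, a J-domain protein (the DNAJ families) delivers the client and starts the cycle, and an HSP110 opens the HSP70 again by exchanging its nucleotide. HSP90 takes over clients late in folding. Each compartment has its own set: the stress-inducible and constitutive HSP70s and HSP90s of the cytosol, which heat shock factor 1 controls, BiP (HSPA5) and GRP94 (HSP90B1) of the ER, which the unfolded protein response controls, and mortalin (HSPA9) with the HSPD1-HSPE1 chaperonin in the mitochondrion. In liver, ischemia and reperfusion are known triggers of the cytosolic response, and the hepatocyte, as a secretory cell, carries a large ER.

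Total counts were between 18975413 and 35949178 per library, and the members together took between 0.449% and 1.78% of them. Normalized counts are counts divided by DESeq2 size factors, and values of different genes are not compared, since transcript lengths were not used. The counting error of an abundant gene is small beside the spread between livers, for which edgeR's common biological coefficient of variation was 0.729. On the first principal component of the 500 most variable genes other than members (64.5% of their variance), 4 of the 13 libraries stood apart, at 24.6 to 51.2 against -27.4 to -2.63 for the other 9. They were ischemic control 2, arterial infusion 1, portal infusion 1 and portal infusion 4. In these 4 libraries the summed normalized count of 11 hepatocyte markers was between 1090000 and 1940000, below all other 7 libraries at 6 h. The number of genes with at least 10 reads was 13189 to 14573 in these 4 and 13822 to 14924 in the other 9, with overlap. The compartment medians over all livers at 6 h and several members are given with and without them. In bulk tissue, fewer cells of a type and less RNA per cell cannot be told apart. RNA quality values are not given in the sources used here, and the part of RNA quality was not tested.

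**Figure D1:**
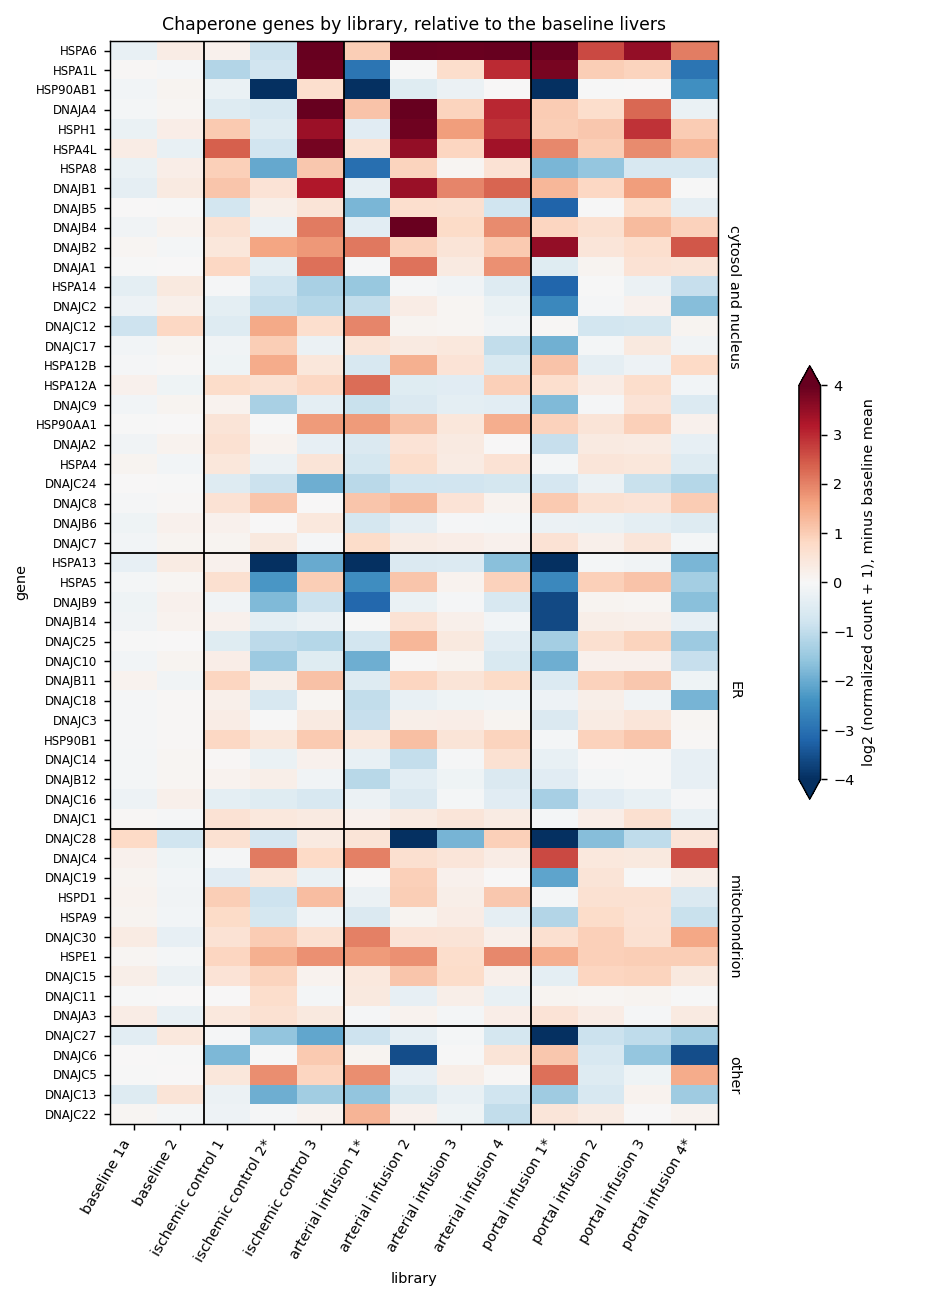
Heat map of the 55 members tested (rows, by compartment and within it by falling spread at 6 h) in the 13 libraries (columns). Color is log2(normalized count + 1) minus the mean of the 2 baseline libraries, and an asterisk marks the 4 libraries that stood apart. HSPA6, DNAJA4, HSPA4L and DNAJA1 were highest in ischemic control 3 and arterial infusion 2 and 4, whereas HSPA5, DNAJB9 and HSP90AB1 were lowest in the 4 marked libraries.

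Of the 59 members, 55 had enough reads to be tested. DNAJB8, DNAJC5B and DNAJC5G had 0 reads in every library, where a count of 0 allows up to 3 reads, and DNAJB13 was too low. The genes HSPA2, DNAJB3, DNAJB7 and DNAJC21 had no row under their symbols and are not analysed here. HSPA1A and HSPA1B are synonyms of HSP70.2 in the RefSeq table, whose row is described beside HSPA1L.

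The first question was how these genes differed between ischemic controls and baseline. With the quasi-likelihood test of edgeR and p-values adjusted over 16481 genes (Benjamini-Hochberg), 0 of the 55 members differed between ischemic controls and baseline at an adjusted p under 0.05, as did 0 of all genes (0%). At an unadjusted p under 0.05 there were 3 members, all higher in controls, HSPA6, HSPA4L and HSPE1, or 5.45% of members beside 4.37% of all genes tested. DESeq2 called 0 members as well, over all 13 libraries and over the groups compared. It did call genes over the whole table, in this and in most other comparisons. Their numbers are given with the dependence on the processing. All 3 controls lay above both baseline libraries for 10 members (18.2%, beside 14.8% of all genes) and below them for 4 (7.27%, beside 16.3% of all genes). The share of members that were called or separated upward was thus near that of all genes. By compartment, 21 of 26 cytosolic members had a positive fitted log2 fold change, with a median of 0.58, and 8 of 10 mitochondrial members did, with a median of 0.49. In the ER 7 of 14 did, with a median of -0.03. The median over all genes tested was 0.00. Without ischemic control 3 the cytosolic median was 0.27, and without baseline 2 the mitochondrial one was 0.25. Of the marker lists of other cell types in the same comparison, 7 of 7 neutrophil genes had a positive estimate (median 1.01), 4 of 4 erythroid genes (median 1.96) and 6 of 9 Kupffer cell and macrophage genes (median 0.54), beside 3 of 11 hepatocyte genes (median -0.05). For T and NK cells it was 7 of 9 (median 0.34), for cholangiocytes 3 of 5 (median 0.85), for stellate and stromal cells 4 of 9 (median -0.23) and for endothelium 2 of 8 (median -0.44). The part of these cell types in the compartment medians was not tested.

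Against baseline, the 11 livers at 6 h as a whole gave 0 of 55 members (0% of all genes) at an adjusted p under 0.05 and 4 members at an unadjusted p under 0.05 (4.78% of all genes), namely HSPA6, HSPA4L, DNAJB2 and HSPE1. All 11 lay above both baseline libraries for HSPE1 and DNAJB2 (3.3% of all genes) and below them for DNAJC24 (3.97% of all genes). The medians were 0.40 for the cytosol, -0.12 for the ER and 0.37 for the mitochondrion. Without the 4 libraries that stood apart they were 0.40, 0.11 and 0.41.

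HSPA6 had the widest spread of all members at 6 h. HSPA6, an HSP70 that is made almost only under stress (ENSSSCG00000047932, assembly Sscrofa11.1, chromosome 4, 88970592 to 88973109), gave normalized counts of 47.1 and 70.7 at baseline, of 64.9, 31.5 and 11200 in ischemic controls 1 to 3, of 116, 8827, 902.9 and 4154 after arterial infusion and of 1043, 365.2, 672.2 and 244.1 after portal infusion. Controls 1 and 2 lay at the baseline level, control 3 was the highest library of all, and all 8 infused livers lay above both baseline libraries. Across libraries its highest value was 355 times its lowest, from 18 to 15501 raw reads. The log2 fold change of ischemic controls against baseline was 6.01 (SE 2.29, edgeR adjusted p = 0.978), and without control 3 it was -0.24 (adjusted p = 0.998). It was the only member called under another filter, with no minimum on low counts, where edgeR gave an adjusted p of 0.00187.

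Ischemic control 3, arterial infusion 2 and arterial infusion 4 were also the 3 highest libraries for DNAJA4, a J-domain partner of the cytosolic HSP70s, and for HSPA4L, a relative of HSP110. DNAJA4 was at 23.9 and 26.4 at baseline, at 17.4, 15.8 and 767.5 in controls, at 57.1, 511.6, 47.1 and 208.5 after arterial and at 51.6, 41.1, 126.4 and 20.9 after portal infusion. HSPA4L was at 52.5 and 33.8 at baseline, at 226.3, 24.5 and 613.6 in controls, at 64.2, 490.2, 77.1 and 443.2 after arterial and at 163.6, 85.0, 157.5 and 108.0 after portal infusion. The groups overlapped for both genes, and 2 of 3 controls lay below baseline for DNAJA4. Its log2 fold change against baseline was 3.41 (SE 1.61) with control 3 and -0.57 without it. For HSPA4L it was 2.75 (SE 1.15, edgeR adjusted p = 0.978).

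HSPH1, the main HSP110 and the nucleotide exchange factor of cytosolic HSP70, was at 830 and 1194 at baseline, at 2078, 695.2 and 10700 in controls, at 722.7, 14790, 3165 and 7393 after arterial and at 1970, 2109, 7457 and 2010 after portal infusion. All 4 portal livers and all arterial livers but the first exceeded both baseline libraries. DNAJB1, the stress-inducible J-domain protein that serves HSP70, was at 2173 and 3607 at baseline, at 6048, 4129 and 25680 in controls, at 2169, 30620, 10900 and 14130 after arterial and at 7058, 4985, 8910 and 2759 after portal infusion. All 3 controls exceeded baseline, by 2.06 on the log2 scale (SE 0.97, edgeR adjusted p = 0.978). This fell to 0.84 without control 3, and for HSPH1 from 2.16 to 0.48.

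DNAJA1, which takes clients to HSP70 and HSP90, was at 2561 and 2577 at baseline, at 4599, 1947 and 11960 in controls, at 2465, 11510, 3310 and 9084 after arterial and at 1853, 2757, 3848 and 3709 after portal infusion. The same 3 livers held its 3 highest values, and its log2 fold change in controls was 1.27 with control 3 and 0.37 without it. DNAJB4, a close relative of DNAJB1, reached 5018 in arterial infusion 2 and 1364 and 1201 in ischemic control 3 and arterial infusion 4, with 242.7 to 780.5 in all other livers. Across the cytosolic members, ischemic control 3 was the highest of 13 libraries for 9 and arterial infusion 2 for 6 of 26.

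HSPA1L, an HSP70 gene mainly known from testis, was at 6.94 and 6.33 at baseline, at 2.37, 3.50 and 113.5 in controls, at 0, 6.499, 11.36 and 59.7 after arterial and at 104.5, 14.01, 13.04 and 0 after portal infusion. Its RefSeq span on chromosome 7 (23909960 to 23938678) contains that of HSP70.2 (23925929 to 23927854), the major inducible HSP70. The row of HSP70.2, ENSSSCG00000029160, carries no symbol in the count table and so fell outside the rule for members. The libraries did not keep the strand, so reads of the pair could not be told apart where the gene models used for counting overlap. Those were Ensembl models, and whether the pair overlaps in them was not checked. Reads of near-identical HSP70 copies could also have been split between rows.

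HSP70.2 itself was at 772.9 and 856.6 at baseline, at 1263, 1879 and 45360 in controls, at 2922, 28050, 10090 and 24100 after arterial and at 11680, 2327, 6845 and 3303 after portal infusion. All 11 livers at 6 h lay above both baseline libraries, and control 3, arterial 2 and arterial 4 were again the 3 highest. On the log2 scale this was 4.32 higher in ischemic controls (SE 1.47, edgeR adjusted p = 0.978) and 3.81 over all livers at 6 h (SE 1.36, adjusted p = 0.86; exact two-sided permutation test, p = 0.0385, where 0.0128 is the smallest possible).

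The main HSP70 and HSP90 genes of the cytosol were ordered differently across livers. HSPA8, the housekeeping HSP70, was at 26000 and 38290 at baseline, at 61120, 7572 and 66160 in controls, at 3903, 58390, 33580 and 47510 after arterial and at 8916, 10910, 20140 and 20260 after portal infusion. All 4 portal livers lay below both baseline libraries, while the controls and arterial livers fell on both sides of them. HSP90AA1, the inducible HSP90, was at 19940 and 20070 at baseline, at 28880, 19920 and 65100 in controls, at 65000, 45410, 27110 and 55130 after arterial and at 38210, 28550, 38560 and 22310 after portal infusion. Of the 11 livers at 6 h, 10 exceeded both baseline libraries and ischemic control 2 lay just under them. Over all 11 the difference was 0.94 on the log2 scale (SE 0.50, edgeR adjusted p = 0.86).

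HSP90AB1, the constitutive HSP90 (chromosome 7, 39237299 to 39250479), was at 6182 and 7102 at baseline, at 5560, 152.3 and 10550 in controls, at 419.4, 4754, 5610 and 6746 after arterial and at 324.7, 6561, 6671 and 1199 after portal infusion. The 4 libraries that stood apart held the 4 lowest values, and the other 7 livers at 6 h lay between 4754 and 10550. Its log2 fold change in controls was -0.27 (SE 1.33) with all libraries and 0.29 without those 4. HSPA4, an HSP110 made in unstressed cells too, was at 3171 and 2722 at baseline and between 1820 and 4752 at 6 h, with all 4 of those libraries again below the other 7.

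**Figure D2:**
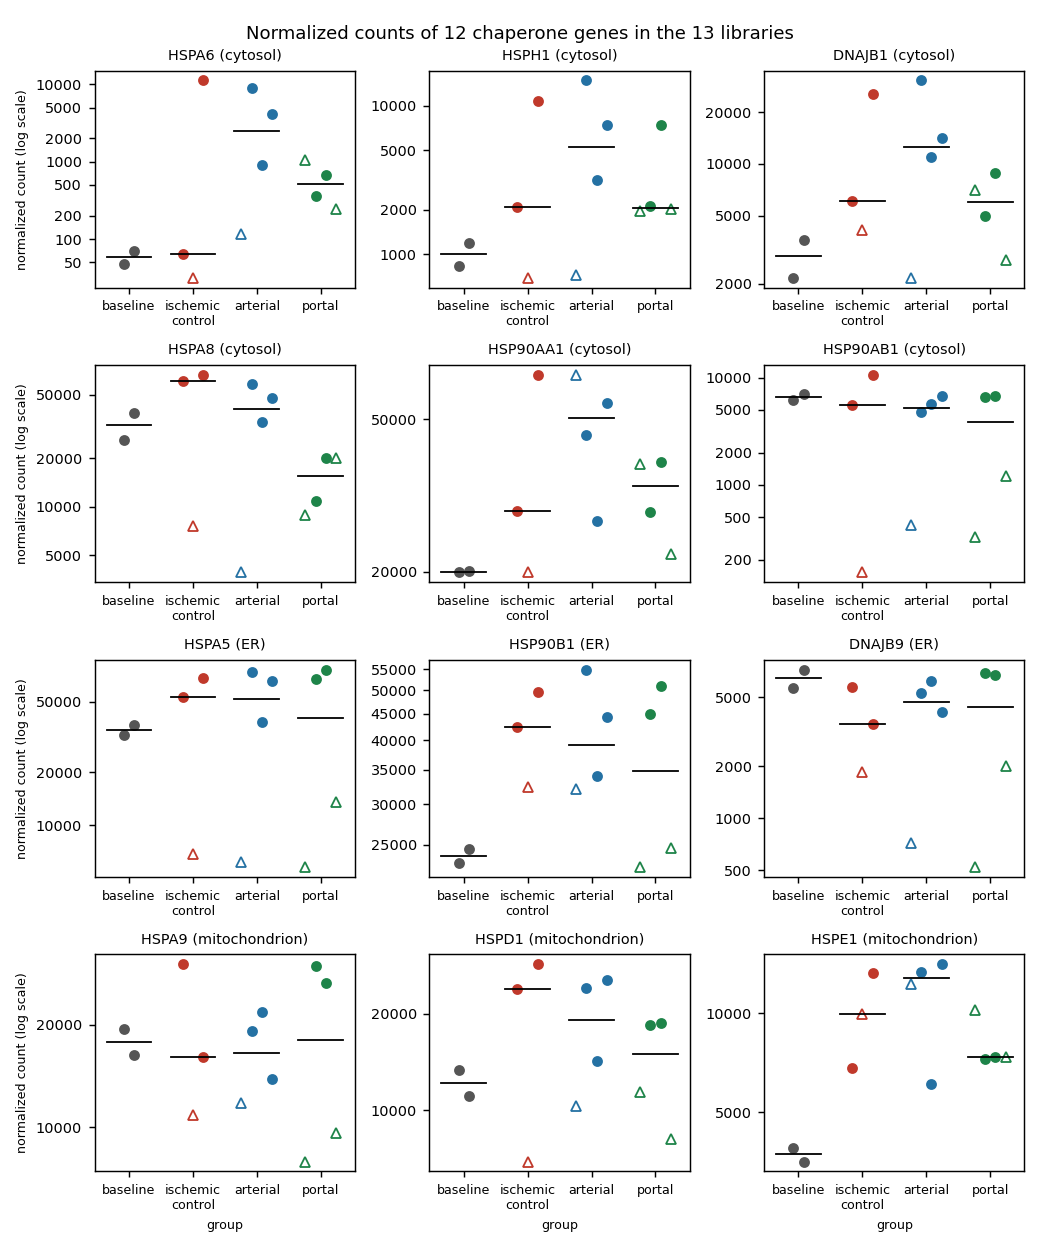
Normalized counts on a log scale of 12 members in each library, by group. Points are livers, open triangles are the 4 libraries that stood apart and bars are medians. HSPE1 lay at 6100 or more in all 11 livers at 6 h and at 3911 or less at baseline, whereas HSPA5 and HSP90AB1 split into low open triangles and high filled points in every group at 6 h.

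The other J-domain proteins of the cytosol were less variable, with exceptions. DNAJB2, best known from neurons, was at 556.9 and 495.8 at baseline, at 720.7, 1571 and 1758 in controls, at 2270, 992.6, 749.6 and 1086 after arterial and at 5982, 737.8, 835.7 and 2924 after portal infusion. No liver at 6 h overlapped baseline, and its log2 fold change was 1.60 (SE 0.70, edgeR adjusted p = 0.86), or 0.90 (SE 0.33, adjusted p = 0.417) without the 4 libraries that stood apart. DNAJC24, a protein of diphthamide synthesis, was at 96.4 and 96.0 at baseline and between 23.9 and 82.2 at 6 h, again without overlap, with a log2 fold change of -0.86 (SE 0.56, edgeR adjusted p = 0.86). DNAJC7 was among the steadiest members, its highest library at 1.78 times its lowest. DNAJC12, a partner of the aromatic amino acid hydroxylases, ranged from 1041 to 3222 at baseline and from 1108 to 7072 at 6 h, so that the 2 baseline libraries spanned much of the range.

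In the ER, 7 of 14 members had a positive and 7 a negative estimate in controls against baseline. HSPA5, which encodes BiP (chromosome 1, 265930044 to 265934959), was at 32470 and 36820 at baseline, at 53670, 6817 and 68070 in controls, at 6141, 73920, 38290 and 65920 after arterial and at 5776, 67160, 76250 and 13430 after portal infusion. The 7 livers outside the 4 that stood apart lay above both baseline libraries, from 38290 up, and those 4 lay below them, at 13430 or less. The log2 fold change in controls was 0.33 (SE 1.13, edgeR adjusted p = 0.99) and 0.83 (SE 0.35, adjusted p = 0.42) without those 4.

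HSP90B1, the ER member of the HSP90 family (chromosome 5, 80511513 to 80531016), was at 23040 and 24560 at baseline, at 42350, 32430 and 49650 in controls, at 32150, 54850, 34030 and 44280 after arterial and at 22630, 45060, 50930 and 24620 after portal infusion. Every control and arterial liver exceeded baseline. Of the portal livers only portal infusion 1 lay below both baseline libraries, and portal infusion 4 lay just above them. Its log2 fold change was 0.81 in controls (SE 0.52, edgeR adjusted p = 0.978) and 0.72 over all livers at 6 h (SE 0.45, adjusted p = 0.86). DNAJB11, the soluble J-domain partner of BiP, was at 1740 and 1410 at baseline and at 2860, 1858 and 3504 in controls, 0.80 higher on the log2 scale (SE 0.58) without overlap. It ranged from 1086 to 2851 after arterial and from 1079 to 3311 after portal infusion.

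DNAJB9 and HSPA13 were among the ER members with a negative estimate. DNAJB9, a J-domain protein induced in ER stress that holds down the sensor IRE1, was at 5634 and 7225 at baseline, at 5742, 1860 and 3529 in controls, at 722.7, 5281, 6187 and 4130 after arterial and at 523.6, 6939, 6771 and 1997 after portal infusion. No liver at 6 h exceeded baseline 2, and the estimate in controls was -0.77 (SE 0.93) with all libraries and -0.45 (SE 0.35) without the 4 that stood apart. HSPA13, an atypical HSP70 of the ER, was at 1576 and 2504 at baseline, at 2240, 61.3 and 492.1 in controls, at 63.4, 1340, 1350 and 624.5 after arterial and at 30.2, 1870, 1799 and 561.9 after portal infusion. Its range of 82.9 times was the widest in the ER, and its estimate in controls was -1.08 on the log2 scale (SE 1.37, edgeR adjusted p = 0.978). Without ischemic control 1 it was -2.87, without control 2 it was -0.54, and without the 4 libraries that stood apart it was -0.55 (SE 0.61).

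DNAJC3, which inhibits the kinases of the translation arrest response, was at 5790 and 6065 at baseline and between 3153 and 8304 at 6 h. DNAJC10, a reductase that works with BiP in degradation, was at 1058 and 1219 at baseline and between 290.9 and 1379 at 6 h. Both were lower in all 4 libraries that stood apart than in the other 7 livers at 6 h, as were HSPA5, HSP90B1, DNAJB9 and DNAJB11. This made 6 of 14 ER members with all 4 below the other 7, against 3 of 26 in the cytosol, 2 of 10 in the mitochondrion and 10.6% of all genes tested.

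In the mitochondrion, HSPE1 was the member with the clearest separation from baseline. HSPE1, the HSP10 lid of the chaperonin (chromosome 15, 101374019 to 101376146), was at 3911 and 3548 at baseline, at 6813, 9901 and 13190 in controls, at 12250, 13340, 6100 and 14050 after arterial and at 10180, 7280, 7373 and 7371 after portal infusion. All 11 livers at 6 h lay above both baseline libraries, the lowest of them, arterial infusion 3, at 6100. The log2 fold change was 1.41 in controls (SE 0.46, unadjusted p = 0.00803, adjusted p = 0.978 in edgeR) and stayed between 1.18 and 1.60 with any 1 of the 5 libraries left out. Over all livers at 6 h it was 1.35 (SE 0.41, unadjusted p = 0.00509, edgeR adjusted p = 0.86; exact two-sided permutation test, p = 0.0128, the smallest possible), and limma voom with sample quality weights gave 1.30 with an adjusted p of 0.0262.

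HSPD1, the HSP60 barrel that HSPE1 closes, starts 520 bases away on the same chromosome (101360355 to 101373498). It was at 13330 and 11050 at baseline, at 23830, 6903 and 28560 in controls, at 10290, 24000, 14230 and 25450 after arterial and at 11400, 18470, 18650 and 8133 after portal infusion. It overlapped baseline in every group at 6 h, with all 4 libraries that stood apart below the other 7. Without them its log2 fold change in controls was 1.12 (SE 0.34, edgeR adjusted p = 0.304), against 0.71 (SE 0.64, adjusted p = 0.978) with them.

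HSPA9, the mitochondrial HSP70 that pulls proteins through the import channel, was at 19350 and 16290 at baseline, at 30020, 10890 and 16120 in controls, at 11770, 19160, 21780 and 13880 after arterial and at 7944, 29640, 26530 and 9639 after portal infusion. Baseline lay in the middle of this range, and the log2 fold change in controls was 0.11 (SE 0.65). DNAJA3, its J-domain partner in the matrix, was the steadiest member at 6 h (SD 0.24 on the log2 scale), from 1782 to 2872 against 2305 and 1518 at baseline. DNAJC15, a J-domain protein of the import motor, was at 320.1 and 232.1 at baseline and between 208.9 and 595.2 at 6 h. DNAJC4 went the other way from most members, at 562.1 to 868.4 in the 4 libraries that stood apart and at 132.9 to 239.2 in the other 7 livers at 6 h.

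Members of other membranes gave no common pattern. DNAJC5, the cysteine string protein of vesicles, was at 1021 and 1035 at baseline and at 1395, 3723 and 1880 in controls, and at 2879 to 4718 in the 4 libraries that stood apart. DNAJC13, an endosomal protein, was at 1130 and 2342 at baseline and between 422 and 1796 at 6 h. The log2 fold change of DNAJC13 in controls was -1.07 (SE 0.63, edgeR adjusted p = 0.978).

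The spread among livers at 6 h also differed by compartment. The median SD of log2(normalized count + 1) was 0.92 for cytosolic members, 0.62 in the ER and 0.60 in the mitochondrion, beside 0.91 for all genes tested. The 3 most variable members were HSPA6, HSPA1L and HSPA13, with SDs of 2.78, 2.39 and 2.23. The least variable were DNAJA3, DNAJC7, DNAJC1 and DNAJC11, at 0.24 to 0.29.

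The second question was whether livers that received BM-MSCs differed from ischemic controls. In the same edgeR test, 0 of 55 members (0% of all genes) had an adjusted p under 0.05 and 0 an unadjusted p under 0.05, beside 2.14% of all genes tested. DESeq2 called 0 members, though not 0 genes over all 13 libraries. The medians were -0.18 in the cytosol, -0.09 in the ER and -0.11 in the mitochondrion, with -0.02 over all genes. No member lay above the controls in all 8 infused livers (0.225% of all genes did) and 1, DNAJB6, lay below them in all 8 (0.34% of all genes).

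DNAJB6, a J-domain protein that keeps polyglutamine and other proteins from aggregating, was at 2000 and 2534 at baseline, at 2561, 2299 and 3021 in controls, at 1380, 1761, 2164 and 2147 after arterial and at 1908, 1891, 1716 and 1570 after portal infusion. The controls were the 3 highest livers at 6 h, and baseline lay across both. The log2 fold change of infused livers against controls was -0.56 (SE 0.27, unadjusted p = 0.0534, edgeR adjusted p = 1.0; exact two-sided permutation test, p = 0.00606, the smallest possible, not adjusted for the 55 members). Under TMM normalization the groups overlapped. DNAJB6 was named after its values were seen, for this lack of overlap. The lack of overlap by itself puts the permutation p at or near its smallest, so that test adds nothing to it.

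For several members, ischemic control 3 set the direction. HSPA6 was lower by 1.45 on the log2 scale in infused livers (SE 1.19) but 4.80 higher without control 3 (SE 1.35, edgeR adjusted p = 1.0), since controls 1 and 2 lay below all 8 infused livers. DNAJA4 was at -1.29 with and 2.70 without control 3, DNAJB1 at -0.40 and 0.82, and DNAJA1 at -0.50 and 0.41. HSPA1L was at -0.73 and 2.97, and the constitutive HSP90AB1 at -0.45 and 0.47. The interval of 2 SE for HSPA6 with all libraries ran from -3.83 to 0.93. For the chaperonin gene HSPE1 the difference was -0.08 with an interval of 2 SE from -0.73 to 0.56, and for the ER gene HSP90B1 -0.13 with an interval from -0.87 to 0.62.

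DNAJC25, a membrane protein of the ER with a J-domain, had the largest positive difference among members, 1.07 (SE 0.59, edgeR adjusted p = 1.0). It was at 1895 and 1935 at baseline, at 1380, 917.6 and 861.4 in controls, at 1162, 4810, 2510 and 1435 after arterial and at 742.6, 3009, 3557 and 693.2 after portal infusion. All 3 controls lay below baseline. The infused livers lay on both sides of baseline, with portal infusion 1 and 4 lower than any control.

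**Figure D3:**
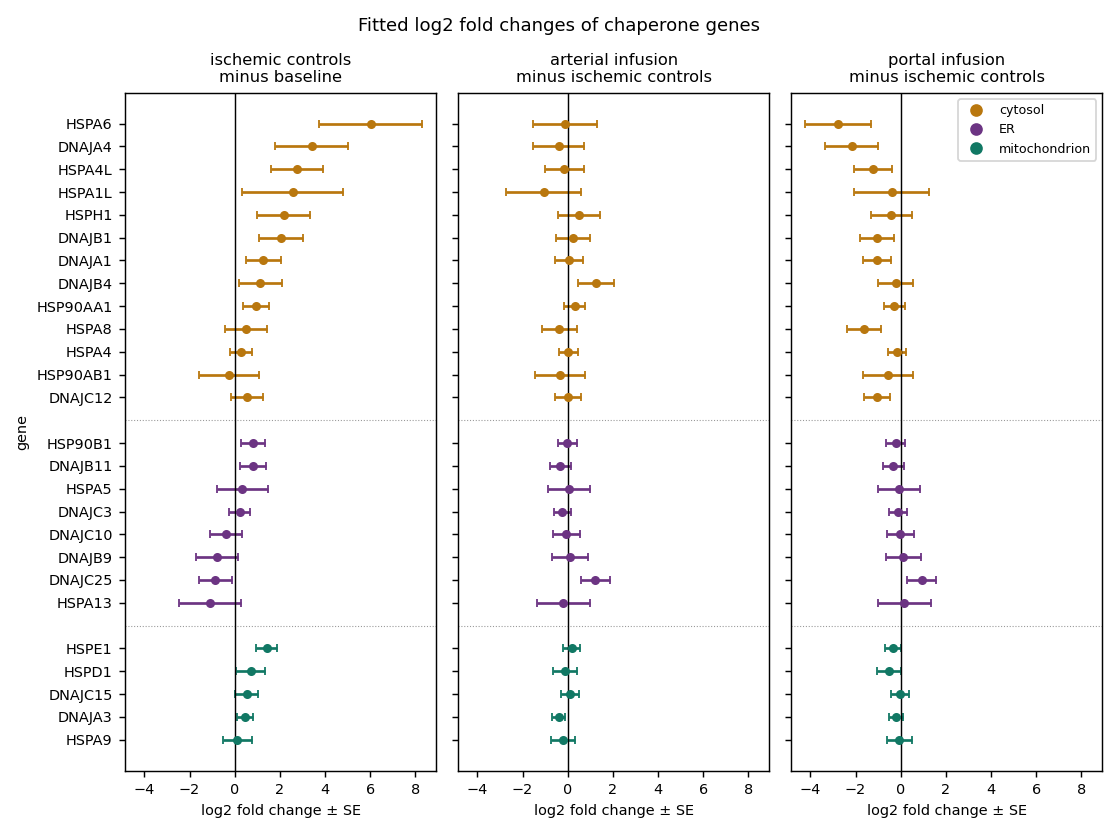
Fitted log2 fold changes with standard errors of 26 members in 3 comparisons, with cytosolic members in ochre, ER members in purple and mitochondrial members in green. HSPA6 has the largest estimate and the widest error in controls against baseline, 6.01 ± 2.29, and HSPE1 at 1.41 ± 0.46 has a small error beside its size. None passed the adjusted threshold.

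Taken by route, arterial infusion against ischemic controls gave 0 of 55 members (0% of all genes) at an adjusted p under 0.05 in edgeR and 0 at an unadjusted p under 0.05 (1.57% of all genes), and DESeq2 called 0 members. No member lay above the controls in all 4 arterial livers (1.61% of all genes) and 3 lay below, DNAJB12, DNAJB6 and DNAJA3 (1.57% of all genes). DNAJB12, an ER membrane protein of quality control, was at 1606, 1735 and 1323 in controls and at 678.1, 1078, 1287 and 985.0 in arterial livers, a difference of -0.63. The exact two-sided permutation p was 0.0571, where 0.0286 is the smallest possible. DNAJB12 was named for this separation, which by itself puts that p at or near its smallest, so the test adds nothing to it. These comparisons share the control livers with those of the portal group.

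Portal infusion against ischemic controls gave 0 of 55 members (0% of all genes) at an adjusted p under 0.05 in edgeR and 0 at an unadjusted p under 0.05 (2.79% of all genes). DESeq2 called 0 members, though not 0 genes over all 13 libraries. No member lay above the controls in all 4 portal livers (1.39% of all genes) and 1, DNAJB6, lay below (2.33% of all genes). In the cytosol 20 of 26 members had a negative estimate, with a median of -0.33, including all 9 HSP70 and HSP110 genes. The median was -0.05 without ischemic control 3 and -0.54 without control 1. Portal infusion 1 and 4 and ischemic control 2 are among the 4 libraries that stood apart. Without those 4, fewer cytosolic members were negative. Of the HSP70 and HSP110 genes, HSPA14 was then at 0.42 and HSPA4 at 0.01, and the others stayed negative. With all 13 libraries, HSPA6 was at -2.76 (SE 1.46, adjusted p = 1.0) and HSPA8 at -1.63 (SE 0.77, unadjusted p = 0.051, adjusted p = 1.0) in edgeR. Without those 4, edgeR gave HSPA6 at -3.42 (SE 1.53, adjusted p = 0.531) and HSPA8 at -2.03 (SE 0.4, unadjusted p = 0.000371, adjusted p = 0.314).

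Between the routes, again 0 of 55 members (0% of all genes) differed at an adjusted p under 0.05 in edgeR and 0 at an unadjusted p under 0.05 (2.4% of all genes). DESeq2 called 0 members, though not 0 genes over all 13 libraries. The estimate was higher after arterial infusion for 22 of 26 cytosolic members, with a median of 0.32, beside 0.04 for all genes, and for 8 of 14 ER and 6 of 10 mitochondrial members. The cytosolic median was 0.15 without arterial infusion 2 and 0.71 without portal infusion 3. Portal infusion 1 and 4, but only arterial infusion 1, are among the libraries that stood apart. Without those libraries, fewer cytosolic members were higher after arterial infusion. HSP90AB1 was then at -0.23 (SE 0.32) and HSP90AA1 at 0.32 (SE 0.39), with HSPA6 at 3.14 (SE 1.46) and HSPA8 at 1.57 (SE 0.37). In that fit HSPA8, DNAJA1, DNAJB1 and DNAJB4, higher after arterial infusion, and DNAJC9, lower, had an unadjusted p under 0.05 in edgeR. The adjusted p of each was 0.994, and the share of all genes is not given for that fit. With all 13 libraries, the largest was HSPA6 at 2.62 (SE 1.40, interval of 2 SE from -0.19 to 5.42). DNAJB4 was at 1.5 in the same fit (SE 0.73, unadjusted p = 0.0586, edgeR adjusted p = 1.0), where arterial infusion 2 held the value far above the rest. Only DNAJC27 lay above the portal livers in all 4 arterial ones (0.91% of all genes), and no member lay below (0.498% of all genes). DNAJC27, a small GTPase with a J-domain, was at 73.2, 102.1, 124.9 and 79.6 after arterial and at 0, 72.9, 65.2 and 50.3 after portal infusion, and the order was lost under TMM normalization.

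Ratios of 2 members within a library do not depend on normalization, and they were taken after the values had been seen, so they are given with no test. Their size depends on transcript length, and only their change between libraries is read. HSP90AA1 over HSP90AB1 was 3.23 and 2.83 at baseline, 131, 155, 118 and 18.6 in the 4 libraries that stood apart, in the order ischemic control 2, arterial infusion 1, portal infusion 1 and portal infusion 4, and 4.35 to 9.55 in the other 7 livers at 6 h. HSP90B1 over HSPA5 was 0.710 and 0.667 at baseline, 4.76, 5.24, 3.92 and 1.83 in those 4 and 0.668 to 0.889 in the other 7. The ER pair thus kept nearly the baseline ratio in 7 livers, in which both genes were higher than at baseline.

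HSPE1 over HSPD1 was 0.293 and 0.321 at baseline, 1.43, 1.19, 0.893 and 0.906 in the 4 libraries and 0.286 to 0.556 in the other 7. Of 5 pairs computed, all 4 libraries lay above the other 9 in these 3 and in HSPA9 over HSPA5, at 0.718 to 1.92 against 0.211 to 0.596. For HSPA6 over HSPA8 they did not, at 0.00416 to 0.117 against 0.00106 to 0.169. In these 4 libraries the 7 neutrophil markers summed to 2840 to 12600 normalized counts, against 817 to 7150 in the other 7 livers at 6 h and 1200 to 1400 at baseline. Reads of the mitochondrial genome took 4.84% to 15.98% of their counts, against 4.51% to 22.04% in the others. The part of these values in the ratios was not tested.

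**Figure D4:**
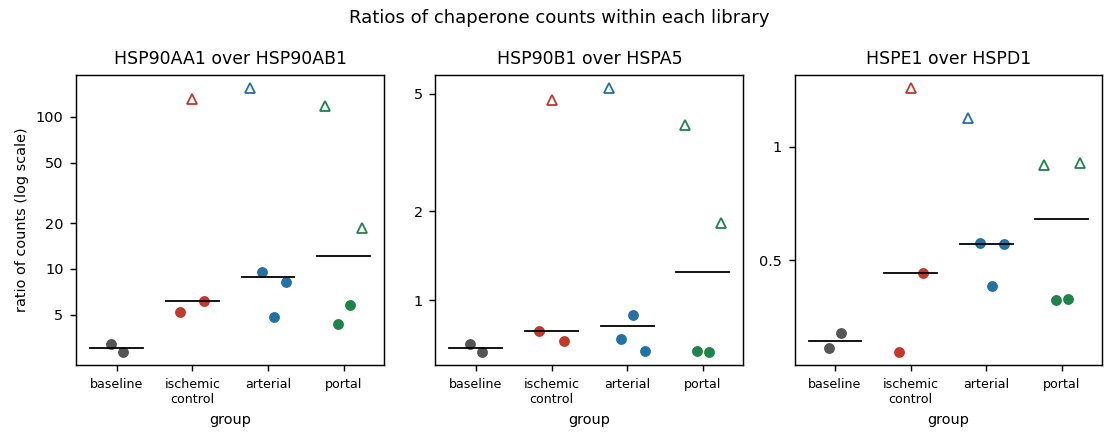
Ratios of raw counts within each library on a log scale for 3 of the 5 pairs of members, by group. Points are libraries, open triangles are the 4 that stood apart and bars are medians. The triangles lie above every filled point in each panel, at 18.6 to 155 for HSP90AA1 over HSP90AB1 against 2.83 to 9.55.

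The partners of these chaperones were read from lists of genes outside the member families. None of their genes passed the adjusted threshold in edgeR. Among 17 HSP90 cochaperones, 15 had a positive estimate in controls against baseline, with a median of 0.61, and all 3 controls lay above both baseline libraries for 10 (14.8% of all genes did). AHSA1, which activates the ATPase of HSP90, was 1.58 higher (SE 0.54, unadjusted p = 0.0102, edgeR adjusted p = 0.978) and FKBP4, a cochaperone of steroid receptors, 1.58 higher (SE 0.65, adjusted p = 0.978). NUDC was at 2.11 (SE 0.93) and the ubiquitin ligase STUB1 at 1.77 (SE 0.81).

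Among 15 ER folding enzymes and partners, 13 had a positive estimate, with a median of 0.46, and 8 lay above baseline in all controls, beside 14.8% of all genes. The largest were 3 small proteins that the unfolded protein response induces, SDF2L1 at 3.44 (SE 0.98, unadjusted p = 0.00336), CRELD2 at 2.75 (SE 0.70, unadjusted p = 0.0013) and MANF at 1.5 (SE 0.51, unadjusted p = 0.00996), each with an edgeR adjusted p of 0.978. Their estimates thus exceeded those of HSPA5 and HSP90B1 in the same fit. The 5 heat shock factors and their binding proteins all had a positive estimate, with a median of 0.64, and HSF1, the factor that induces the cytosolic genes, was at 0.96 (SE 0.40, unadjusted p = 0.0296, edgeR adjusted p = 0.978).

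Of 9 HSP70 exchange and BAG factors 8 had a positive estimate, BAG2 being the largest at 2.13 (SE 0.79). TRiC and prefoldin genes had a median of 0.19 over 13 and mitochondrial proteases and chaperones a median of 0.42 over 9, with 0 genes of either list at an unadjusted p under 0.05. In infused livers against controls the medians of the 6 lists were between -0.33 and 0.11. FKBP5, a glucocorticoid-induced HSP90 cochaperone, was the only gene of these lists at an unadjusted p under 0.05, at -0.78 (SE 0.35, edgeR adjusted p = 1.0).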

How the data were processed

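RNA of 13 pig liver libraries was sequenced from poly-A selected, non-directional paired-end libraries, as described by the authors. They aligned reads with HISAT2 to Sscrofa11.1, used FeatureCounts with Ensembl gene models, and deposited the raw gene counts. Tool versions and the handling of multi-mapping reads are not given in the sources used here. For RNA extraction the methods name NucleoSpin and the labels miRNeasy.

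Groups and replicate numbers came from the labels. Counts were tested with edgeR 4.0.16 (filterByExpr, TMM, quasi-likelihood test, Benjamini-Hochberg adjustment, threshold 0.05) in R 4.3.3, all 4 groups in 1 fit. DESeq2 1.42.0 gave size factors and an alternative test, limma 3.58.1 another. Exact permutation tests were two-sided, on log2(normalized count + 1). Standard errors were the log2 fold change over the square root of F. Scripts were tested on simulated data. Each library at 6 h was 1 pig per the study, but for baseline this is not stated, so the spread there may be technical.

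The members and gene lists were chosen with earlier results of these data known. Named by rule were the chaperones of a list of main members, the largest rise and fall per comparison, and any gene past the threshold, of which there were 0. Other members were named outside this rule, after their values were seen. Among them were HSPA4L, DNAJB6, DNAJB12, DNAJC4, DNAJC5, DNAJC7, DNAJC13, DNAJC24 and DNAJC27. Of the 59 members 58 were matched to RefSeq for Sscrofa11.1, which gave the coordinates. Sequences are not used here. Alternatives were other tests, normalizations, filters and samples in the fit, the replicate block, and each library left out in turn.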

Additional observations from a re-analysis of the deposited data

Results flagged for a closer look

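Among 27 genes in the arterial and the portal group, 54 groups of 4 livers were checked for a library far from the other 3, and chance flags about 1 in 20 such groups. There were 5. HSPH1 was at 7457 normalized counts in portal infusion 3 against 1970 to 2109 in the other portal livers. HSPE1 was at 10180 in portal infusion 1 against 7280 to 7373, and HSPA1L at 104.5 in the same library against 0 to 14.0. In arterial infusion 1, DNAJC3 was at 3153 against 6422 to 7084 and DNAJC12 at 7072 against 1673 to 1960. Portal infusion 1 and arterial infusion 1 are among the 4 libraries that stood apart.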

How the results depend on the processing

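Of the summary values, 618 recomputed ones kept their direction and size and 60 moved. For the members named by rule, 888 values stayed on the same side, 94 changed sign and 1 passed the threshold. These came from controls against baseline and from infused livers against controls. Precision was limited by 2 baseline and 3 control libraries.

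Genes called over the whole table numbered 0 in every comparison in the fit reported. With no filter on low counts edgeR called 30 genes for controls against baseline, 28 for all livers at 6 h against baseline, 19 for infused livers, 11 for arterial and 14 for portal infusion against controls and 5 between routes, with 1 member called, HSPA6, in each of the first pair. DESeq2 over all 13 libraries called 8, 15, 1 and 4 genes for controls, all livers at 6 h, infused and portal livers and 1 between routes, and over the groups compared it called 173 for controls, 15 for all livers at 6 h and 3 for portal livers, with 0 members. Voom with sample quality weights called 111 genes, 1 of them a member, HSPE1, for all livers at 6 h against baseline, and moved the mitochondrial median between routes from 0.09 to -0.13.

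Leaving out the 4 libraries that stood apart, an alternative chosen after seeing the data, gave 1 called gene for infused and for arterial livers against controls. Members not overlapping went from 14 to 28 for controls against baseline, from 3 to 16 for all livers at 6 h, from 1 to 8 for infused, from 3 to 14 for arterial and from 1 to 21 for portal livers against controls, and from 1 to 15 between routes. Fewer libraries make such separation more frequent. In the same order, 50.9%, 29.1%, 14.5%, 25.5%, 38.2% and 27.3% of members separated then. Of all genes, 42.9%, 11%, 12%, 17.8%, 44.1% and 20.4% did. TMM normalization, also added after seeing the data, left 0 such members for infused livers and between routes. With mitochondrial and small RNA genes left out there were 1 for arterial, 2 for portal livers and 0 between routes, and 0 between routes with at least 10 counts in every library. Shares of all genes are not given for these settings.

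In controls against baseline, HSP90AB1 went from -0.27 to 0.29 and DNAJC12 from 0.54 to -0.01 without the 4 libraries. In infused livers against controls these became HSPA4 0.03, HSP90AA1 -0.31, HSPA5 0.10, HSPA13 0.05, HSP90B1 0.01, DNAJC10 0.07 and DNAJB2 -0.52. Voom gave HSPA4 0.05, HSP90AA1 -0.26, HSP90AB1 0.19, HSPA5 0.30, HSPA13 1.04, DNAJC10 0.32, HSPA9 0.27 and DNAJB2 -0.56. HSPA5 and HSPA13, at -0.01 and -0.02 in the fit reported, were at 0.01 and 0.03 in DESeq2 over all libraries and with at least 10 counts, 0.01 and 0.02 in DESeq2 over the groups compared and with RLE factors, 0.02 and 0.02 in edgeR over the groups compared, and 0.01 and 0.04 with upper quartile factors. HSPA5 was at 0.00 with no filter and without mitochondrial and small RNA genes, and HSP90AA1 at 0.00 with no filter.

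The labels' replicate numbers did not pair the livers: same-numbered libraries had correlations between -0.422 and 0.428 in their deviations from the group means, over 0.1 in 5 of 16 pairs. A replicate block called 0 genes in any comparison, with medians of 0.69, -0.12 and 0.49 for cytosol, ER and mitochondrion in controls against baseline, and turned HSPA6 to 1.12, DNAJA4 to 0.42, DNAJB9 to -0.41 and DNAJB2 to -0.07 in infused livers against controls.

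With each library left out in turn, members not overlapping ranged from 20 to 28 for controls against baseline, 3 to 12 for all livers at 6 h, 1 to 4 for infused, 3 to 10 for arterial and 1 to 7 for portal livers, and 1 to 4 between routes. Leaving out a library makes such separation more frequent for any gene. The shares over all genes are not given for these fits, so the counts are not read as a result about the members. The mitochondrial median ranged from 0.25 to 0.83 in controls, from 0.18 to 0.61 in all livers at 6 h and from -0.20 to 0.08 in arterial livers. In controls against baseline the range was -1.15 to 3.13 for HSPA1L, -0.24 to 6.61 for HSPA6, -1.18 to 0.31 for HSP90AB1, -0.57 to 3.99 for DNAJA4, -0.17 to 0.84 for HSPA5, -0.43 to 0.40 for HSPA9 and -0.06 to 1.51 for DNAJC12.

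In infused livers against controls it was -1.58 to 2.97 for HSPA1L, -0.30 to 0.05 for HSPA4, -2.05 to 4.80 for HSPA6, -0.49 to 1.72 for HSPH1, -0.32 to 0.63 for HSP90AA1, -1.03 to 0.47 for HSP90AB1, -0.94 to 0.41 for DNAJA1, -1.87 to 2.70 for DNAJA4, -0.83 to 0.82 for DNAJB1, -0.18 to 1.39 for DNAJB4, -0.53 to 0.49 for HSPA5, -0.56 to 1.78 for HSPA13, -0.30 to 0.01 for HSP90B1, -0.22 to 0.62 for DNAJB9, -0.40 to 0.50 for DNAJC10, -0.44 to 0.40 for HSPA9, -0.74 to 0.03 for HSPD1, -0.27 to 0.14 for HSPE1, -0.17 to 0.18 for DNAJC15 and -0.91 to 0.02 for DNAJC12. The upper ends for HSPA6, DNAJA4, DNAJB1, DNAJA1, HSPA1L, HSPH1, HSP90AA1, HSP90AB1, DNAJB4, HSPA5, HSP90B1, HSPD1 and HSPE1 came without ischemic control 3. The cause of these moves was not tested.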
